A study of Homo sapiens with 4 samples.

Results

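The genes described here are MYCBP and 9 genes of the MYC MAX network (MYC, MYCN, MAX, MXD1, MXD3, MXD4, MXI1, MNT and MLX), 10 of the 18334 genes named on the arrays. They were taken by symbol from the array features that name exactly 1 gene, which gave 33 of 45220 features. MYCBP was picked because its log ratio was below 0 on all 4 arrays, so its values are given as a description with no test. The other 9 were picked by family. The cells were HEK293T, a line from human embryonic kidney with the large T antigen of SV40, transfected with plasmids expressing either a siRNA against CHD6, a chromodomain helicase that remodels chromatin, or a control siRNA. RNA was taken 48 h later and compared on 4 Agilent 2-colour arrays, each hybridised with a CHD6 siRNA sample and a control siRNA sample. The CHD6 siRNA sample carried the dye Hy5 on replicates 2 and 4 and Cy3 on replicates 1 and 3. Whether each replicate was a culture of its own is not in the labels. The p-values therefore measure only how these arrays varied, and that variation may be technical.

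Values are log2 ratios of CHD6 siRNA over control siRNA, a direction that is likely but not settled and a base that is assumed. Every array title puts the siRNA before the control. CHD6, the targeted gene, was below 0 in all 4 columns (-0.42, -0.43, -0.28 and -0.65 on replicates 1 to 4, mean over 3 features), though it did not pass the test described below (limma adjusted p = 0.134) and would be at -0.095 turned by dye. The sources used here do not state how the ratio was formed. Arrays of opposite dye orientation ran against each other, with Pearson r from -0.84 to -0.68 across features, while arrays of the same orientation correlated at 0.80 and 0.79. If the columns were Hy5 over Cy3, the arrays with the siRNA in Cy3 would have to be turned in sign. The means of the network genes are therefore also given turned by dye, which is the same number as the dye coefficient of the fit (the mean with the siRNA in Hy5 minus that with it in Cy3, divided by 2). Columns of Cy3 over Hy5, which the sources leave equally open, would give each turned mean the opposite sign. The arrays hold ratios and no levels, so neither the abundance of a gene nor the identity of the cells could be checked. The 10 markers of fibroblasts, immune cells and erythroid cells had mean log ratios from -0.12 to 0.16, and 0 of them passed the test described below. Of these, HBB, LYZ and PTPRC were above 0 on all 4 arrays, with means of 0.07, 0.05 and 0.05, and of 0.012, 0.015 and 0.03 turned by dye. Of all genes, 7.04% had 1 sign on all 4 arrays.

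MYC and MYCN are transcription factors of the basic helix-loop-helix leucine zipper class that bind DNA as heterodimers with MAX, at a site called the E-box, and activate genes of growth and ribosome production. MXD1, MXD3, MXD4, MXI1 and MNT pair with MAX in place of MYC and bring the SIN3 and histone deacetylase corepressors to the same sites. MLX is a MAX-like protein that pairs with the glucose-responsive factors MLXIP and MLXIPL as well as with some MXD proteins and MNT. MYCBP, also called AMY-1, is a small protein outside this class that binds the amino-terminal part of MYC and stimulates E-box-dependent transcription.

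MYCBP lies on chromosome 1 (chr1:38862490-38873378, GRCh38.p14, RefSeq), within the readthrough locus GJA9-MYCBP. The non-coding transcript RRAGC-DT also overlaps it, and the files do not hold the probe sequences that would tell these transcripts apart. The promoters are shown because the network's proteins act on the E-box, whose best-bound form is CACGTG, a palindrome that reads the same on both strands. RefSeq windows from 250 bases before to 50 after a transcript start were found for 9 of the 10 genes (13 windows). CACGTG was present in a window of 3 of these 9 genes, MXD4, MNT and MLX, against 8.77% of the 27305 genes in the table and 7.26% of its 35116 windows. The first sequence is the 250 bases before the MYCBP start (chr1:38873379-38873628, minus strand), which hold no CACGTG. The next are 60-base stretches of the other promoters, with the E-box in capitals, all 5′ to 3′ and from GRCh38.p14.
MYCBP: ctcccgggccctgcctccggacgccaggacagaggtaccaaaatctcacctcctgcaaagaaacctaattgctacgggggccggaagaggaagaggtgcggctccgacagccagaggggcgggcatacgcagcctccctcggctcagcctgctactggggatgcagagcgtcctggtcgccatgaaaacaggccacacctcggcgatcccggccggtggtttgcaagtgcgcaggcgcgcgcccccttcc
MXD4: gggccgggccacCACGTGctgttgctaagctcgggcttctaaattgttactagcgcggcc
MNT: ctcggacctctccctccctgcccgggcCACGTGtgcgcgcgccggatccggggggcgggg
MLX: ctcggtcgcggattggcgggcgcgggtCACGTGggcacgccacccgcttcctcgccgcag
The MXD4 stretch is chr4:2262300-2262359 (minus strand), the MNT stretch chr17:2401221-2401280 (minus strand) and the MLX stretch chr17:42567023-42567082 (plus strand). The E-box began 238, 193 and 50 bases before the start of MXD4, MNT and MLX. A match is a description of the letters, and binding was not measured.

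MYCBP had log ratios of -0.89, -0.30, -0.95 and -0.45 on replicates 1 to 4. All were below 0, which is what chose the gene, and the values nearest to 0 were those of the arrays with the siRNA in Hy5. The mean was -0.65 ± 0.32 (SD, n = 4), or 63.8% of control, rank 8 from the lowest of 18334 genes. By dye orientation it averaged -0.38 with the siRNA in Hy5 and -0.92 with it in Cy3. Turned by dye the mean would be 0.27, or 1.21-fold over control. As background to the sign pattern, 640 genes (3.49%) were below 0 on all 4 arrays. The network gene nearest to that pattern was MXI1, below 0 on 3 arrays and at 0.21 on replicate 3.

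The 2 features of MYCBP, both annotated to the same transcript, had nearly the same mean but differed in how they moved with dye. Feature 34602 was at -0.64, -0.55, -0.67 and -0.65 on replicates 1 to 4, a mean of -0.63 ± 0.05 (SD, n = 4), or 64.7% of control. The arrays of both orientations lay close together. Feature 2593 was at -1.14, -0.05, -1.23 and -0.25, a mean of -0.67 ± 0.60 (SD, n = 4). It lay far below 0 with the siRNA in Cy3 and close to 0 with it in Hy5. With the arrays turned by dye, the mean of feature 34602 would be 0.03 and that of feature 2593 would be 0.52. The mean as deposited was shared by both features, and the turned mean came mostly from 1 of them. MYCBP was picked on the average of these same 2 features, so their shared sign is no check on either reading.

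**Figure D1:**
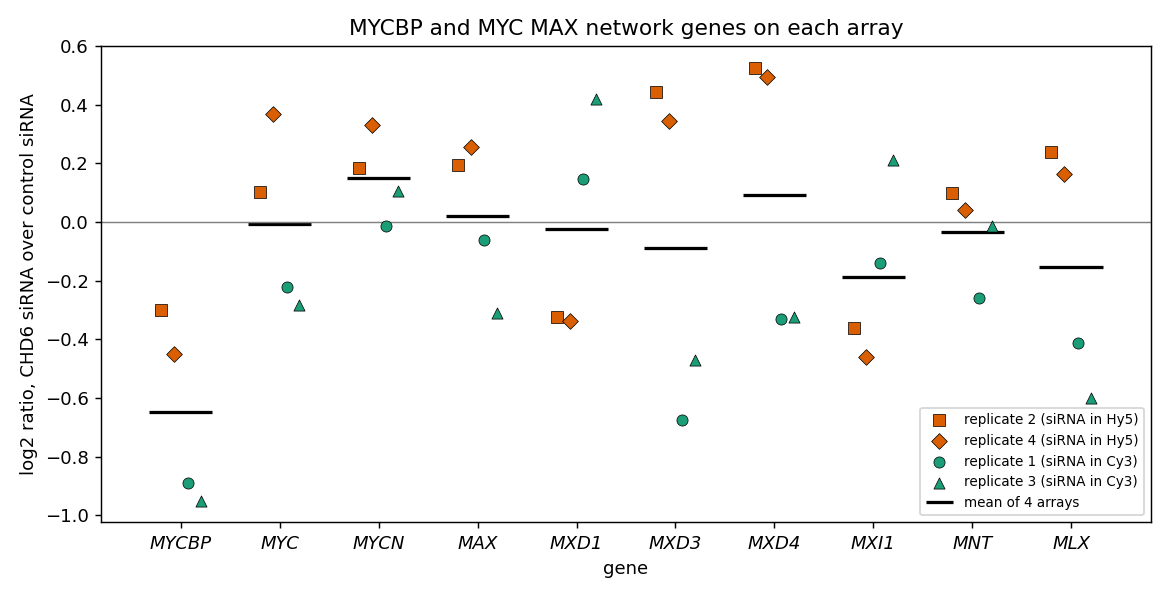
Log2 ratio (CHD6 siRNA over control siRNA, vertical axis) of each network gene on each of the 4 arrays, coloured by the dye of the siRNA sample, with the mean as a black bar. MYCBP lies below 0 on all arrays (-0.95 to -0.30), and every other gene has arrays on both sides of 0.

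The other 9 genes had means from -0.19 to 0.15, and none passed the test. That test was limma's moderated, two-sided fit over all 18334 genes with dye orientation as a second coefficient, at an adjusted p of 0.05 (Benjamini-Hochberg). It called 0 of the 9, against 0.0218% of all genes, and the smallest adjusted p among the 9 was 0.530. At an unadjusted p under 0.05 it counted 1 of the 9, MXI1, against 9.37% of all genes. With the intercept alone, 0 of the 9 passed against 0.0% of all genes. At an unadjusted p under 0.05 that fit counted 0 of the 9, against 1.32% of all genes. None of the 9 had 1 sign on all 4 arrays, which 7.04% of all genes had.

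MYC itself was at -0.22, 0.10, -0.28 and 0.37 on replicates 1 to 4, averaged over 12 features. It was above 0 on the arrays with the siRNA in Hy5 and below 0 on those with it in Cy3, so the orientations did not overlap. The mean was -0.0079 ± 0.30 (SD, n = 4; limma adjusted p = 0.984), with a 95% interval from -0.18 to 0.16. The fit therefore leaves room for a change of either sign within that interval. Turned by dye the mean would be 0.24 (limma adjusted p = 0.0282).

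MYC was measured by more features than any other network gene, which shows the spread between features within an array. Of its 12 features, 10 share 1 accession and nearly the same values, and they may carry 1 probe sequence. Their SD within an array was 0.02, 0.04, 0.04 and 0.10 on replicates 1 to 4. Their averages were -0.33, 0.12, -0.15 and 0.29. These 10 were taken after the feature farthest from the rest had been set apart, so their SD is that of a trimmed set. Over all 12 features the SD within an array was 0.30, 0.08, 0.39 and 0.25. Feature 4922, annotated to the same accession, stood apart at 0.69, -0.10, -1.49 and 1.08. Without it the MYC values would be -0.30, 0.12, -0.17 and 0.30, with a mean of -0.013 as deposited and 0.23 turned by dye.

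MYCN, the MYC paralogue of neural and embryonic tissue, had the highest mean of the network. It was at -0.015, 0.19, 0.11 and 0.33 on replicates 1 to 4, above 0 on all arrays but replicate 1. The mean of 0.15 ± 0.14 (SD, n = 4) had a 95% interval from -0.0094 to 0.31 and did not pass (limma adjusted p = 0.549). Its 2 features had means of 0.12 and 0.19 but turned means of opposite sign, 0.40 for feature 30491 and -0.19 for feature 16910. The gene's turned mean of 0.11 (limma adjusted p = 0.264) was thus an average of features that disagreed in sign.

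MAX, the shared partner, was at -0.06, 0.19, -0.31 and 0.26 on replicates 1 to 4. As for MYC, the Hy5 arrays were above 0 and the Cy3 arrays below it. The mean was 0.02 ± 0.26 (SD, n = 4; limma adjusted p = 0.961), with a 95% interval from -0.15 to 0.19, and 0.21 turned by dye (limma adjusted p = 0.0518). The 3 features of MAX, each annotated to a different transcript, had means of -0.11, 0.07 and 0.10.

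Among the repressive partners, MXI1 had the lowest mean and MXD4 the highest. MXI1, measured by a single feature, was at -0.14, -0.36, 0.21 and -0.46 on replicates 1 to 4, and was lowest on the arrays with the siRNA in Hy5. Its mean of -0.19 ± 0.30 (SD, n = 4) had a 95% interval from -0.37 to -0.0026 and did not pass after adjustment (limma adjusted p = 0.530). With the intercept alone the unadjusted p of MXI1 in limma was 0.230. Without replicate 1 the fitted mean, in which both dye orientations count equally, would be -0.10. Gene means given without a replicate are all of this kind and are not plain averages of the remaining arrays. Turned by dye MXI1 would be at -0.22 (limma adjusted p = 0.0536). MXD4 was at -0.33, 0.53, -0.32 and 0.49, above 0 on both arrays with the siRNA in Hy5 and below 0 on both with it in Cy3. The mean was 0.092 ± 0.48 (SD, n = 4; limma adjusted p = 0.727). Its features 12376 and 42958 both showed that gap, with turned means of 0.58 and 0.64, and feature 8292 did not, at 0.04.

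MXD3, the family member tied to proliferating cells, differed most with dye. It was at -0.68, 0.45, -0.47 and 0.35 on replicates 1 to 4, with a mean of -0.089 ± 0.57 (SD, n = 4; limma adjusted p = 0.762). The turned means of its 2 features were 0.85 for feature 20891 and 0.12 for feature 44530, while their means as deposited were both -0.09. MXD1, an antagonist of MYC induced in differentiating cells, ran the other way, at 0.15, -0.32, 0.42 and -0.34. It was below 0 with the siRNA in Hy5 and above 0 with it in Cy3. The mean was -0.023 ± 0.37 (SD, n = 4; limma adjusted p = 0.955).

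MNT and MLX make up the rest of the network. MNT, a broadly expressed MAX partner, was at -0.26, 0.10, -0.015 and 0.04 on replicates 1 to 4, a mean of -0.034 ± 0.16 (SD, n = 4; limma adjusted p = 0.928). MLX was at -0.41, 0.24, -0.60 and 0.16, again with Hy5 arrays above 0 and Cy3 arrays below it. Its mean of -0.15 ± 0.42 (SD, n = 4) had a 95% interval from -0.31 to 0.0095 (limma adjusted p = 0.549). All 3 MLX features had means close together, from -0.19 to -0.13.

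**Figure D2:**
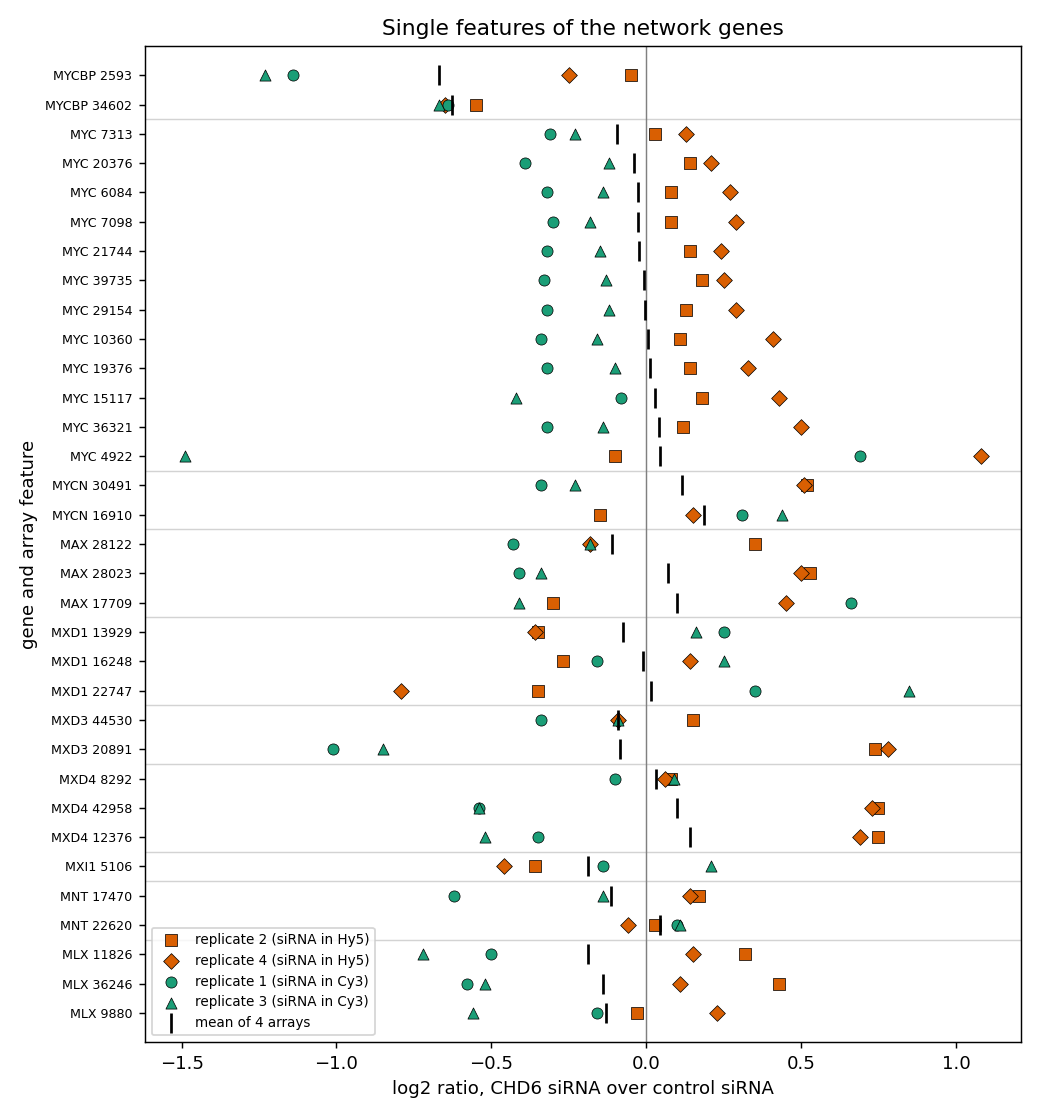
Log2 ratio (horizontal axis) of each of the 33 single features on the 4 arrays, grouped by gene and coloured by the dye of the siRNA sample, with the mean as a black tick. Feature 34602 of MYCBP has its 4 arrays between -0.67 and -0.55, and feature 4922 of MYC spreads from -1.49 to 1.08.

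By mean log ratio the order from lowest to highest was MYCBP, MXI1, MLX, MXD3, MNT, MXD1, MYC, MAX, MXD4 and MYCN. Among the last 9, neighbours in this order differed by at most 0.07, against standard errors of 0.07 to 0.08 for single genes. The order of neighbours is therefore not resolved, and differences between genes farther apart were not tested. MYCBP stood 0.46 below MXI1, yet the 4 values of both genes overlapped (-0.95 to -0.30 for MYCBP and -0.46 to 0.21 for MXI1). The gap lay in the arrays with the siRNA in Cy3, where MYCBP was at -0.89 and -0.95 and MXI1 at -0.14 and 0.21. With the siRNA in Hy5, MXI1 was slightly the lower of the pair, at -0.36 and -0.46 against -0.30 and -0.45. At the level of single features, limma called 0 of the 31 features of the other 9 genes, against 0.0199% of all features. Of these 31, 0 had an unadjusted p under 0.05.

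Under the reading in which columns are Hy5 over Cy3, the network would look different. The mean turned by dye passed for 5 of the 9 genes, against 44.8% of all genes. Of these, 4 would be higher and 1 lower, against 26.9% and 18.0% of all genes. MXD3 (0.48, limma adjusted p = 0.00103), MXD4 (0.42, adjusted p = 0.00134), MLX (0.35, adjusted p = 0.00415) and MYC would be higher in CHD6 siRNA cells. MXD1 (-0.31, adjusted p = 0.0105) would be lower. MNT would be at 0.10 (adjusted p = 0.299). The share lies near that of all genes, and 10 of the 31 features would pass, against 37.3% of all features. The mean log ratio had opposite signs in the 2 orientations for 8 of the 9 genes, and for 75.5% of all genes.

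**Figure D3:**
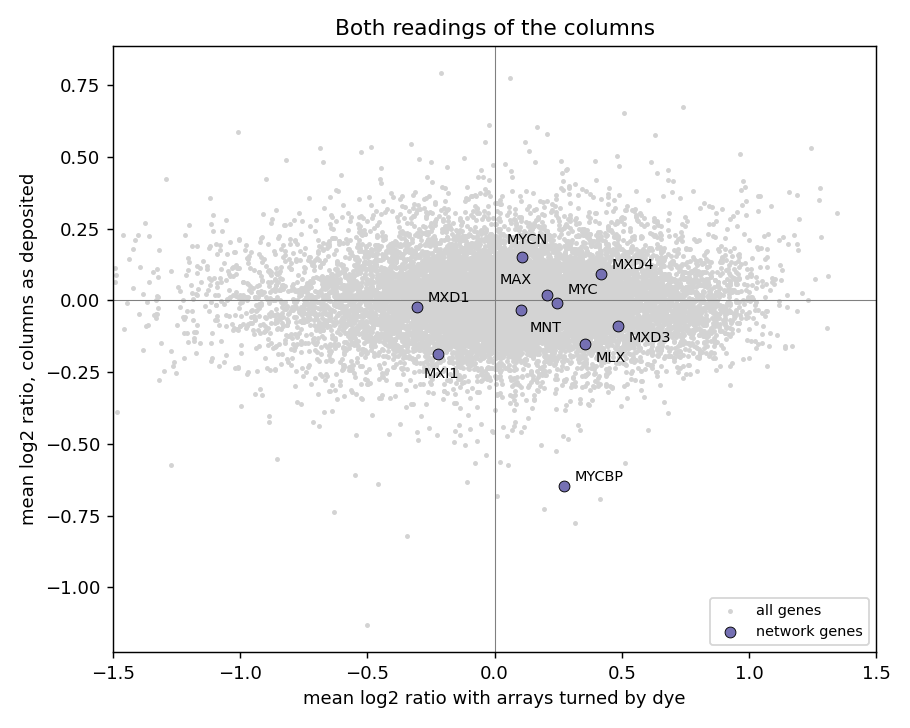
Mean log2 ratio of each gene with the columns as deposited (vertical axis) against the mean with the arrays turned by dye (horizontal axis), with the network genes in purple and all genes in grey, 47 of which lie outside the horizontal range. MYCBP lies at -0.65 on the vertical and 0.27 on the horizontal axis, and the other network genes lie within the grey cloud.

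The genes around MYCBP on chromosome 1 had means near 0. RRAGC, which encodes a Rag GTPase of amino acid sensing and ends 2717 bases away, was at 0.24, -0.10, 0.15 and -0.19 on replicates 1 to 4. Its mean was 0.03 ± 0.20 (SD, n = 4; limma adjusted p = 0.945). GJA9, a connexin gene 690 bases away on the other side and the partner in the readthrough locus, was at -0.02, -0.10, -0.03 and 0.39. Its mean was 0.06 ± 0.22 (SD, n = 4; limma adjusted p = 0.891), or -0.063 without replicate 4. RHBDL2, a rhomboid protease gene beyond GJA9, had a mean of 0.05 ± 0.15 (SD, n = 4; limma adjusted p = 0.904), or -0.025 without replicate 4. Turned by dye, RRAGC, GJA9 and RHBDL2 would be at -0.17, 0.09 and 0.06.

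The genes whose 4 log ratios lay closest to those of MYCBP were GEMIN2, ITM2C, IARS2, RNF4BP and KICS2. Closeness was the root mean square difference over the 4 arrays, which was 0.14, 0.15, 0.15, 0.18 and 0.19 in that order. GEMIN2, a subunit of the SMN complex, was at -1.09, -0.38, -1.09 and -0.54 on replicates 1 to 4. All 5 were below 0 on every array and lower with the siRNA in Cy3 on average. This likeness to MYCBP follows from how they were chosen and is no separate result. Turned by dye the 5 genes would be at 0.19 to 0.42. The genes closest to MYC were POLR2J, HM13, SPACA3, BIVM and FOXK1, with differences of 0.01 to 0.03. Their means lay between -0.033 and 0.02, and between 0.23 and 0.25 turned by dye, which again follows from the choice.

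The wider network was described through lists of genes chosen with earlier results of these data known, and none of their 114 measured genes passed the test. The other network factors MYCL, MGA, MLXIP and MLXIPL (4 of 4 measured) had means from -0.09 to 0.07 and a median of -0.03, against -0.0025 for all genes. Of the MYC coactivators, 12 of 13 were measured, 10 had a mean below 0 (83.3%, against 50.4% of all genes), and the median was -0.07. Of the SIN3 and histone deacetylase corepressors, 5 of 7 were measured, with means from -0.13 to 0.19. Regulators of MYC protein (11 of 12 measured) had a median of -0.03. As background to this and the other lists, 7.04% of all genes had 1 sign on all 4 arrays. Among these regulators 1 gene had 1 sign on all 4 arrays, AURKA, the mitotic kinase that stabilises MYCN (-0.04, -0.10, -0.17 and -0.31 on replicates 1 to 4, limma adjusted p = 0.559). Its mean was -0.16, or -0.10 without replicate 4, and -0.05 turned by dye.

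None of the genes in the list of MYCBP partners passed either. That list also holds MYCBP2, which shares the name and is not taken here as a partner of the MYCBP protein. AKAP1, an anchoring protein for protein kinase A at mitochondria, ARFGEF2, MYCBPAP, CFAP91 and MYCBP2 were all measured, and 4 of the 5 had means above 0 (median 0.05). AKAP1 was the exception, at -0.71, 0.22, -0.52 and 0.06 on replicates 1 to 4. It was below 0 only with the siRNA in Cy3. Its mean was -0.24 ± 0.45 (SD, n = 4; limma adjusted p = 0.368), and 0.38 turned by dye (limma adjusted p = 0.00359).

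Of 67 genes that MYC is known to activate, 62 were measured and 0 passed. Their means were below 0 for 42 of 62 (67.7%), against 50.4% of all genes, and the median was -0.05. At an unadjusted p under 0.05 there were 6 of 62 (9.68%), 5 lower and 1 higher, against 9.37% of all genes. PA2G4, a regulator of growth and ribosome assembly, was the one member below 0 on all arrays (-0.35, -0.045, -0.012 and -0.39, limma adjusted p = 0.538). Its mean was -0.20, or -0.12 without replicate 1 and -0.11 without replicate 4, and -0.019 turned by dye. CCND2, the cyclin D2 gene, was the one above 0 on all arrays (0.07, 0.23, 0.06 and 0.17, limma adjusted p = 0.588), but its mean of 0.13 became -0.055 with the median over its features, and 0.07 turned by dye. Turned by dye, 37 of the 62 would pass (59.7%, against 44.8% of all genes), 27 higher and 10 lower, with a median of 0.15 against 0.03 for all genes.

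The 6 with an unadjusted p under 0.05 were chosen after their values were seen. DCTPP1, which clears modified nucleotides, had a mean of -0.25 ± 0.26 (SD, n = 4), and TMEM97, the sigma-2 receptor, -0.27 ± 0.53 (SD, n = 4). HK2, the hexokinase of glycolysis, was at -0.26 ± 0.30 (SD, n = 4) and LDHA, which makes lactate, at -0.20 ± 0.30 (SD, n = 4). NPM1, the nucleolar phosphoprotein, was at -0.21 ± 0.21 (SD, n = 4). BCAT1, a branched-chain aminotransferase, was the one above 0, at 0.19 ± 0.47 (SD, n = 4). The adjusted p-values of these 6 in limma ran from 0.331 to 0.531. None kept 1 sign on all 4 arrays. Leaving out 1 replicate put HK2 between -0.42 and -0.10, at -0.10 without replicate 2, -0.17 without replicate 3 and -0.42 without replicate 4. TMEM97 was at -0.15 without replicate 2 and -0.18 without replicate 3, NPM1 at -0.14 without replicate 3 and BCAT1 at 0.12 without replicate 1. Turned by dye, LDHA (-0.25, limma adjusted p = 0.0245) and BCAT1 (-0.40, adjusted p = 0.00276) would be lower. DCTPP1 (0.22, limma adjusted p = 0.0363) and TMEM97 (0.41, adjusted p = 0.0130) would then be higher, and NPM1 (-0.15) and HK2 (-0.048) would not pass.

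The 10 genes that MYC is known to repress had 7 means above 0 and a median of 0.03 (-0.011 to 0.09 with 1 replicate left out), and 0 passed. CDKN1A, the cell cycle inhibitor, was at -0.15, 0.67, -0.02 and 0.94 on replicates 1 to 4. It was high on the arrays with the siRNA in Hy5 and near or below 0 on the others (mean 0.36 ± 0.53, SD, n = 4; limma adjusted p = 0.217), and it is also a p53 target. GADD45A, a growth arrest gene and p53 target too, was above 0 on all arrays, at 0.29, 0.03, 0.20 and 0.40. Its mean was 0.23 ± 0.16 (SD, n = 4; limma adjusted p = 0.440), or 0.14 without replicate 4, and -0.015 turned by dye.

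Targets of MLX and its glucose-responsive partners were measured for 5 of 5 genes, and 0 passed. At an unadjusted p under 0.05 in limma there were 2 of 5 (40.0%), TXNIP and KLF10, against 9.37% of all genes. TXNIP, which curbs glucose uptake, was above 0 on all arrays, at 0.0033, 0.33, 0.17 and 0.27 on replicates 1 to 4 (mean 0.19 ± 0.14, SD, n = 4; limma adjusted p = 0.441). With the median over its 3 features the mean would be 0.04 (limma adjusted p = 0.924). G6PC1, the glucose-6-phosphatase of liver, was below 0 on all arrays but within 0.09 of it, with a mean of -0.05 ± 0.03 (SD, n = 4), and 0.013 turned by dye. KLF10 swung most with dye in this list, at 1.30, -0.77, 1.63 and -1.11, and its mean of 0.26 would be -1.20 turned by dye. Among the coactivators, 2 of 12 (16.7%) had an unadjusted p under 0.05 in limma, against 9.37% of all genes. These were HCFC1 (mean -0.24) and CDK9 (mean 0.17), the kinase of transcription elongation, with adjusted p-values of 0.456 and 0.503 in limma. HCFC1 was at -0.13 without replicate 2. Turned by dye, HCFC1 would be at 0.08 and CDK9 at 0.46 (limma adjusted p = 0.00125).

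Turned by dye, the lists would differ in how many genes pass, against 44.8% of all genes. All 5 measured corepressors would pass and be higher, as would 5 of the 12 coactivators. Of the 11 regulators of MYC protein, 5 would be higher and 3 lower. Among the 10 repressed targets 5 would be higher and 3 lower, with CDKN1A at 0.45 (limma adjusted p = 0.00194). MLXIP (0.24) and MLXIPL (0.55) would pass among the other network factors, and KLF10 alone among the MLX targets, where TXNIP would be at 0.11. In the list of MYCBP partners only AKAP1 would pass, and of the 10 markers of other cell types 2 would, COL1A1 (0.31) and CD3E (0.21).

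**Figure D4:**
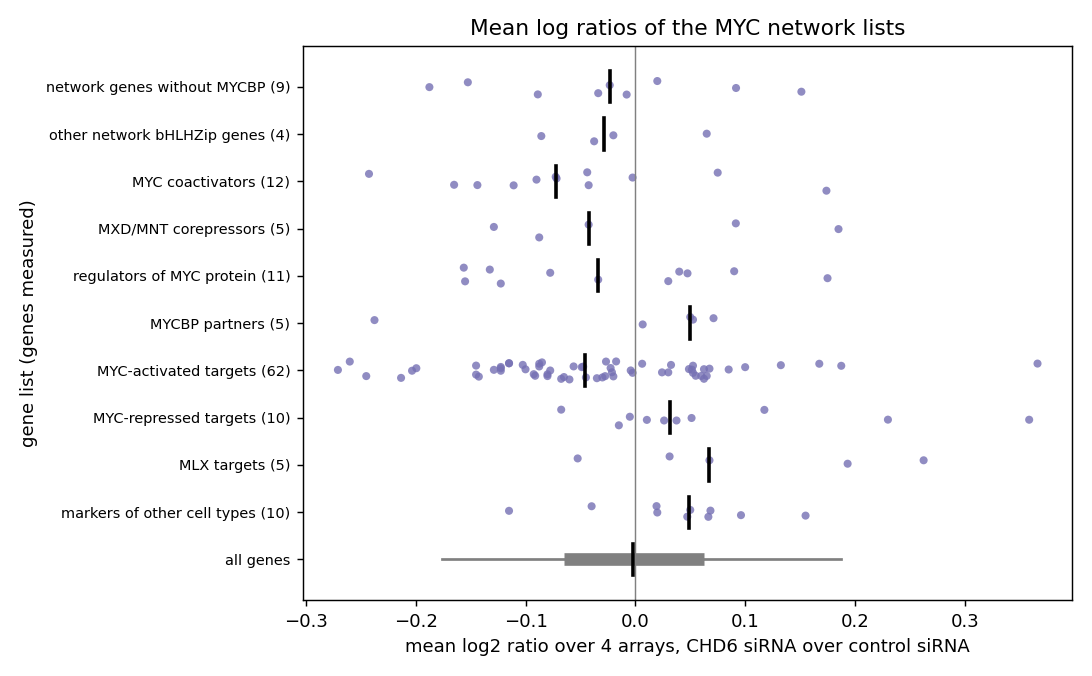
Mean log2 ratio over the 4 arrays (horizontal axis) of each measured gene, 1 row per list, with the list median as a black bar. The bottom row shows all 18334 genes, with a thick bar from the 25th to the 75th percentile (-0.07 to 0.06) and a thin line from the 5th to the 95th (-0.18 to 0.19), and all list medians lie between -0.07 and 0.07.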

How the data were processed

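The authors deposited 1 column of log ratios of both channels per array. The deposited log2 ratios (base assumed: 1 SD of a column is then a 1.36-fold to 1.43-fold ratio) have 2 decimals, column means of 0 to rounding and column medians of -0.02, 0.03, -0.02 and 0.02. The scanner software, background correction, normalization and direction are not stated in the labels. No channel intensity or spot flag was used here, signal over background is unknown, and precision is limited by having 4 arrays. All 4 columns were used (0 unused columns).

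Features were named through the platform annotation, updated by Entrez identifier to RefSeq (GRCh38.p14): 31332 of 45220 name 1 gene, 93 several and 13795 none. They were averaged into 18334 genes. limma 3.58.1 (R 4.3.3) fitted an intercept and dye orientation to all genes, with empirical Bayes moderation and Benjamini-Hochberg adjustment, and again to all features. The script was tested on simulated data. An exact two-sided sign-flip test over 4 arrays reaches p = 0.125 at best.

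Members and lists were chosen with earlier results of these data known. Named were the members, CHD6, in each list up to 3 genes per direction with 1 sign on all arrays, the 5 genes closest to MYCBP and to MYC, and the neighbours of MYCBP. List genes with an unadjusted p under 0.05 were added after their values were seen. Promoter sequences are RefSeq's.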

Additional observations from a re-analysis of the deposited data

Results flagged for a closer look

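In 4 of the 75 sets of 4 array values that were examined, a single array stood far from the rest. A rate of 1 in 20 would give about 3.75 such sets. That rate holds for 4 values from 1 distribution and does not apply directly here. Most genes differed with dye, and some sets shared features. Feature 8292 of MXD4 had -0.10 on replicate 1 and 0.06 to 0.09 elsewhere. GJA9, next to MYCBP, had 0.39 on replicate 4 and -0.10 to -0.02 elsewhere. The median of the MLX target list was 0.17 on replicate 3 and -0.04 to -0.005 elsewhere. LYZ, a marker of immune cells, had 0.10 on replicate 2 and 0.03 to 0.04 elsewhere.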

How the results depend on the processing

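The direction of the columns was the choice that changed most. With the arrays turned by dye, MYCBP would be at 0.27. The dye term cannot alter that mean, as both orientations have the same number of arrays. The number of the other 9 network genes called would be 5 with the dye term and 6 with the intercept alone. The number of list genes called would be 67 and 62 of 114. Of all genes, 44.8% and 42.0% would be called. Of 43 genes followed, 21 changed sign. Turned, the means were 0.24 for MYC, 0.48 for MXD3, 0.10 for MNT, 0.35 for MLX, -0.015 for GADD45A, 0.013 for G6PC1, 0.078 for HCFC1, 0.38 for AKAP1, 0.22 for DCTPP1, 0.41 for TMEM97, -0.40 for BCAT1, -1.20 for KLF10 and -0.17 for RRAGC. They were 0.32 for GEMIN2, 0.42 for ITM2C, 0.19 for IARS2, 0.29 for RNF4BP, 0.27 for KICS2, 0.24 for HM13 and 0.23 for BIVM. Leaving out 1 replicate kept MYCBP between -0.69 and -0.61, and called 0 network genes. It gave ranges across 0 for MYC (-0.075 to 0.059), MAX (-0.043 to 0.083), MXD1 (-0.092 to 0.045), MNT (-0.095 to 0.028), GJA9 (-0.063 to 0.18), RHBDL2 (-0.025 to 0.12), HM13 (-0.098 to 0.063), SPACA3 (-0.055 to 0.09), BIVM (-0.088 to 0.023), FOXK1 (-0.053 to 0.093) and POLR2J (-0.061 to 0.061). MXI1 ranged from -0.28 to -0.10 and MXD3 from -0.14 to -0.038. The medians of 6 lists also ranged across 0: other network factors (-0.087 to 0.042), corepressors (-0.02 to 0.048), regulators of MYC protein (-0.089 to 0.021), MYCBP partners (-0.031 to 0.12), repressed targets (-0.011 to 0.089) and MLX targets (-0.0088 to 0.24). The median over features put CCND2 at -0.055 and TXNIP at 0.038. Under the other 6 alternatives no gene followed changed sign and 0 network or list genes passed. These were intercept alone, median centring, scale and quantile normalization, features not updated left out, and no moderation. Intercept alone and no moderation cannot change a mean here, and median centring moves every gene by the same small amount. For these the kept signs are therefore no check. MYCBP was at -0.76 after quantile normalization. Each log ratio is already a difference between the conditions within 1 array, so the fit was paired in that sense. No further pairing was possible with 1 group of arrays.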
